A study of Homo sapiens with 70 samples.

Results

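The genes described here encode the nuclear part of the mitochondrial respiratory chain and the ATP synthase, and they were chosen by symbol. Among the 20090 genes with a representative transcript in the authors' deposited tables, every symbol beginning with NDUF, UQCR or ATP5, or with COX and a digit, was taken, together with SDHA, SDHB, SDHC, SDHD and CYC1. The rule found 102 genes, of which 43 fall to complex I by name, 4 to complex II, 11 to complex III, 24 to complex IV and 20 to complex V. The rule did not use any measured value.

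The cells were Hep3B and Huh7, 2 established human lines of hepatocellular carcinoma. Each line was treated for 24 h with DMSO (the vehicle), 5 µM GW3965, 2 µM sorafenib, or 5 µM GW3965 together with 2 µM sorafenib. GW3965 is a compound that activates the oxysterol-sensing liver X receptors (LXR), and sorafenib inhibits RAF and several receptor tyrosine kinases. Poly-A RNA was sequenced from 70 libraries, with 9 in each of the 4 Hep3B groups, while Huh7 had 8 for DMSO, 8 under the label GW3965, 9 under the label sorafenib and 9 for the combination. Whether a group's libraries are separate cultures is not stated in the labels, so p-values may measure only technical spread.

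Oxidative phosphorylation moves electrons from NADH (complex I) and succinate (complex II) through complex III and cytochrome c to oxygen at complex IV, and the proton gradient made on the way drives complex V, the ATP synthase. A small set of core subunits carries the cofactors and the catalysis, and a larger set of small accessory subunits stabilises the assembled complexes. Assembly factors insert haem, copper and iron-sulfur clusters and leave the finished enzyme. A part of the chain is encoded by mitochondrial DNA, and 0 of those genes were found in the tables, so only the nuclear part is described.

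Each of the authors' deposited tables sets 1 drug group against DMSO in that line and gives the mean log2 CPM (reads scaled to the library total), the edgeR log2 fold change, and its p-value with the FDR. A gene is called here where that FDR is under 0.05. The tables hold group comparisons, and values of single libraries were not analysed, so no spread between replicates and no depth per library can be given. Levels of a group in CPM were worked out from the mean and the fold change of 1 table, and the error given after ± is an approximate standard error recovered from the authors' p-value. CPM is not divided by transcript length, so levels are compared within a gene and not between genes.

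The hepatocyte markers were present in both lines, with ALB, the gene of albumin, at a mean log2 CPM of 13.03 in Hep3B and 10.74 in Huh7 in the authors' deposited both-drug tables. Of the defining markers of other liver cells, PTPRC, VWF, DCN and PECAM1 lay between -2.34 and -0.76 on that scale. The other markers of that list were CD68, of macrophages (3.45 in Hep3B and 1.86 in Huh7), COL1A1, of collagen-making cells (-0.69 and 4.04), and KRT7, of bile duct cells (1.06 and 0.52), in the authors' deposited tables. Of the 10 hepatocyte markers 6 were lower in each line with both drugs (median -0.48 and -0.61), and of the 7 markers of other liver cells 1 was higher in Hep3B, and 3 were higher and 1 lower in Huh7. Of all transcripts at 2 CPM or more, 35.4% were lower in Hep3B and 26.1% in Huh7 with both drugs. The part of these markers in the results was not tested. The Huh7 single-drug tables go against their labels. In the authors' deposited table labelled GW3965, 1 of 6 LXR target genes was called higher (ABCG1, by 0.75) and 5 of 6 genes of ERK output were called lower (EGR1 by -2.61). Under the label sorafenib, the authors' deposited table had 6 of 6 LXR targets called higher (ABCG1 by 3.82) and 0 of 6 ERK genes called. These 2 tables are therefore named by their labels throughout, and no direction of 1 drug in Huh7 is drawn from them. Both both-drug tables showed 6 of 6 LXR targets higher and 5 of 6 ERK genes lower, and the remaining ERK gene was called higher in Huh7. In Hep3B, GW3965 alone gave 6 of 6 LXR targets higher and sorafenib alone 6 of 6 ERK genes lower.

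With both drugs, most nuclear genes of the chain were lower than in DMSO in both lines. In Hep3B, by the authors' deposited table, 58 of the 102 members were called lower and 13 higher, with a median log2 fold change of -0.28. In Huh7, by the authors' deposited table, 59 were called lower and 7 higher, with a median of -0.29. In either direction, 71 members (69.6%) were called in Hep3B and 66 (64.7%) in Huh7, beside 49.6% and 41.6% of all representative transcripts. At a mean of at least 2 CPM, 75.3% of the members were called in Hep3B and 70.7% in Huh7, beside a background of 72.1% and 61.7%. The calls of the members were mostly lower in both lines. In Hep3B 57 of the 93 members at 2 CPM or more were called lower (61.3%), beside 35.4% lower and 36.7% higher of all such transcripts, whose median was 0.01. In Huh7 59 of 92 were called lower (64.1%), beside 26.1% lower and 35.5% higher, with a median of 0.07. No test of the members as a list was run.

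Fewer members were called with single drugs. GW3965 alone in Hep3B called 4 members, beside 6.79% of all representative transcripts and 11.2% of those at 2 CPM or more. They were NDUFC2 (-0.19 ± 0.06), NDUFA5 (-0.17 ± 0.06) and SDHA (-0.15 ± 0.05), which were lower, and NDUFA4L2 (0.75 ± 0.24), which was higher, in the authors' deposited table. Sorafenib alone in Hep3B called 25 members, 18 of them lower and 7 higher, with a median of -0.03. That is fewer than the background: 24.5% of the members, beside 34.7% of all representative transcripts and 51.5% of those at 2 CPM or more, of which 27.9% were lower and 23.6% higher. The lowest called values with sorafenib in Hep3B were ATP5G1 (-0.91), NDUFS5 (-0.79), NDUFA2 (-0.74), COX16 (-0.68) and ATP5J2 (-0.64) in the authors' deposited table. The highest were NDUFA4L2 (2.51), ATP5S (0.74), COX7A2L (0.71), COX19 (0.62) and COX10 (0.44). The Huh7 table labelled GW3965 called 7 members (6 lower and 1 higher, median -0.07), beside 20.4% of all transcripts and 31.4% of those at 2 CPM or more. Lower there were NDUFAF4 (-0.55), NDUFAB1 (-0.39), NDUFAF2 (-0.36), COX11 (-0.32), NDUFA9 (-0.28) and COX18 (-0.27), and COX7A2L (0.28) was higher, in the authors' deposited table. The Huh7 table labelled sorafenib called 0 members by the authors' edgeR FDR, beside 2.05% and 3.32%. Its count at an unadjusted p under 0.05 was 5 members, 2 higher and 3 lower, and no other tool could be run on these tables.

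**Figure D1:**
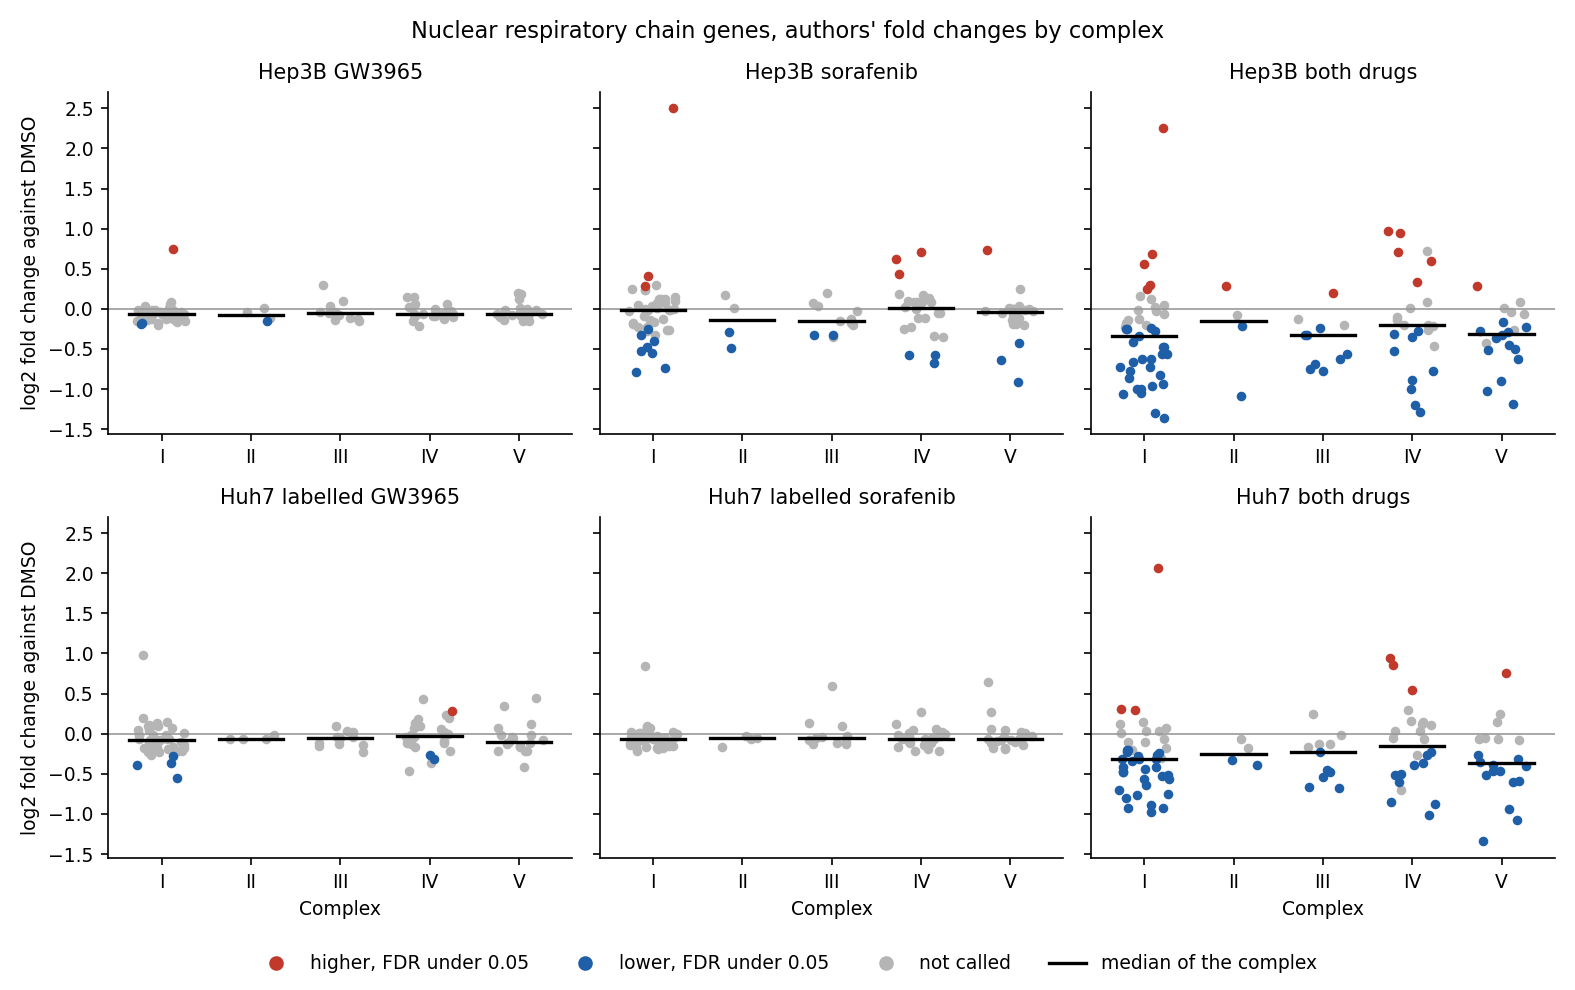
Log2 fold change against DMSO (vertical axis) of all 102 members by complex (horizontal axis) in the 6 deposited tables. Points are genes, coloured by the authors' edgeR call, and black bars are medians. In both both-drug panels the median of each complex lies below 0, between -0.34 and -0.15 in Hep3B and between -0.37 and -0.15 in Huh7.

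The both-drug values are given complex by complex and by the role of the gene product. In complex I, 21 of 30 accessory subunits were lower and 2 higher in Hep3B (median -0.56), and 23 were lower and 1 higher in Huh7 (median -0.43). Of its 7 core subunits, 3 were lower and 0 higher in Hep3B (median -0.03), and 2 were lower and 1 higher in Huh7 (median -0.18). Counted with complex III, 26 of 35 accessory subunits were lower in Hep3B (74.3%) and 28 in Huh7 (80.0%). Of the 15 core subunits of complexes I, II and III, 7 (46.7%) and 5 (33.3%) were lower. Of all transcripts at 2 CPM or more, 35.4% and 26.1% were called lower, so the core shares lie nearer to that background. The difference between core and accessory subunits was not tested. UQCRHL, a near-identical copy of UQCRH below 2 CPM, is left out of these accessory counts.

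NDUFS5, an accessory subunit of the complex I membrane arm, had the lowest fold change of any member in Hep3B. It went from 73.8 CPM in DMSO to 28.7 CPM with both drugs in Hep3B, a log2 fold change of -1.36 ± 0.09 in the authors' deposited table (edgeR FDR 4.17e-47). In Huh7 it went from 47.1 to 25.4 CPM (-0.89 ± 0.11, edgeR FDR 2.23e-14 in the authors' deposited table). Its level with both drugs was thus 38.8% of that in DMSO in Hep3B and 53.8% in Huh7. NDUFA2, an accessory subunit of the matrix arm, went from 35.4 to 14.4 CPM in Hep3B (-1.30 ± 0.10) and from 31.0 to 16.4 CPM in Huh7 (-0.92 ± 0.11), both called in the authors' deposited tables. NDUFB1, a small subunit of the membrane arm, showed -0.96 ± 0.14 in Hep3B and -0.97 ± 0.11 in Huh7 in the authors' deposited tables. Its fold change with sorafenib alone in Hep3B was -0.02 and was not called. NDUFB3, NDUFB4 and NDUFA3, further small accessory subunits, fell by -1.05, -1.0 and -1.06 in Hep3B and by -0.92, -0.80 and -0.57 in Huh7, per the authors' deposited tables.

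Some accessory genes of complex I did not follow. NDUFS4, a late-assembling subunit at the junction of the NADH-oxidising module, was higher in both lines (0.30 ± 0.10 and 0.31 ± 0.11 in the authors' deposited tables). NDUFB5 was higher in Hep3B (0.25) and was not called in Huh7 (0.14), and NDUFV3, NDUFB9 and NDUFA7 were called in neither line. Among core subunits, NDUFV1, which binds NADH and FMN, was at -0.03 in Hep3B and was called higher in Huh7 (0.29, edgeR FDR 0.0153 in the authors' deposited table). NDUFS1, the largest iron-sulfur subunit, was called in neither line, at 0.05 and -0.18. NDUFV2, the neighbouring iron-sulfur subunit, was lower in both lines (-0.63 and -0.27).

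Complex II, which has no accessory subunits in this set, moved unevenly. SDHC, 1 of its 2 membrane anchors, went from 54.9 to 26.0 CPM in Hep3B with both drugs, a fold change of -1.08 ± 0.08 in the authors' deposited table (edgeR FDR 9.24e-39). In Huh7 it went from 32.0 to 24.4 CPM (-0.39 ± 0.09, called). SDHD, the other anchor, was not called in Hep3B (-0.08) and was lower in Huh7 (-0.33). SDHB, the iron-sulfur subunit, was higher in Hep3B (0.28) and not called in Huh7 (-0.06), and SDHA, the flavoprotein, was lower in Hep3B (-0.21) and not called in Huh7 (-0.18), all per the authors' deposited tables.

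In complex III all 5 expressed accessory subunits were called lower in both lines, with medians of -0.69 in Hep3B and -0.54 in Huh7. The background lower at 2 CPM or more was 35.4% in Hep3B and 26.1% in Huh7. UQCR10 went from 34.9 to 20.5 CPM in Hep3B and from 35.4 to 22.2 CPM in Huh7, and UQCRQ from 39.3 to 23.3 and from 31.3 to 19.7 CPM. The smallest fall in Hep3B was that of UQCRB (-0.24, edgeR FDR 0.0443 in the authors' deposited table), which was -0.54 in Huh7. Among its core genes, CYC1, the gene of cytochrome c1, was higher in Hep3B (0.20) and was not called in Huh7 (-0.02). UQCRFS1, the Rieske iron-sulfur protein, was lower in Huh7 (-0.23) and was not called in Hep3B (-0.12), while UQCRC1 and UQCRC2, large subunits that face the matrix, were lower in Hep3B (-0.32 each) and not called in Huh7, per the authors' deposited tables.

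In complex IV, subunits and assembly factors are given apart. Of 10 subunits that are not tissue-restricted, 8 were lower in Hep3B and 6 in Huh7, and none was higher. The median was -0.44 in each line. The background lower at 2 CPM or more was 35.4% in Hep3B and 26.1% in Huh7. COX6B1, a subunit on the intermembrane side, went from 92.5 to 40.2 CPM in Hep3B (-1.20 ± 0.08, edgeR FDR 2.73e-52 in the authors' deposited table) and from 87.1 to 47.8 CPM in Huh7 (-0.87 ± 0.09). COX7B, a small membrane subunit, went from 28.2 to 11.5 CPM in Hep3B (-1.29 ± 0.12) and from 30.6 to 17.0 CPM in Huh7 (-0.85 ± 0.11), both called in the authors' deposited tables. The largest nuclear subunits did not move with them: COX4I1 was at 0.01 and 0.11 and COX5A at -0.21 and -0.05, and neither was called in either line. NDUFA4, which carries a complex I name and is now placed in complex IV, was lower in both lines (-0.94 and -0.77 in the authors' deposited tables).

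Of the 8 assembly factors named COX, 5 were higher and 1 lower in Hep3B with both drugs (median 0.47), and 3 were higher and 4 lower in Huh7 (median -0.25). Of the 4 complex I assembly factors, 2 were higher and 1 lower in Hep3B (median 0.27). In Huh7 0 of them were higher and 2 lower (median -0.19). Of all transcripts at 2 CPM or more, 36.7% were higher and 35.4% lower in Hep3B, and 35.5% and 26.1% in Huh7. With sorafenib alone in Hep3B, 3 of the 8 factors named COX were higher and 1 lower, beside 23.6% and 27.9%. COX7A2L, a factor that joins complexes III and IV into supercomplexes and is counted here among the assembly factors, went from 38.3 to 75.1 CPM in Hep3B (0.97 ± 0.08, edgeR FDR 3.94e-29 in the authors' deposited table) and from 39.1 to 56.9 CPM in Huh7 (0.54 ± 0.11). COX10, which makes haem O for the enzyme's haem A, went from 13.9 to 26.6 CPM in Hep3B (0.94 ± 0.09) and from 11.6 to 21.0 CPM in Huh7 (0.86 ± 0.10), both called in the authors' deposited tables. COX19, which acts in copper delivery, went from 28.8 to 43.6 CPM in Hep3B (0.60 ± 0.09) and from 9.93 to 19.1 CPM in Huh7 (0.94 ± 0.11). COX18, which inserts a mitochondrially made subunit into the membrane, was higher in Hep3B alone among the calls (0.71 ± 0.11) and was at -0.27 ± 0.12 in Huh7. COX16, another factor of complex IV assembly, went the other way, to -1.0 ± 0.10 in Hep3B and -1.01 ± 0.11 in Huh7 in the authors' deposited tables. COX15, which completes haem A, was higher in Hep3B (0.34) and lower in Huh7 (-0.23), the 1 member called in opposite directions.

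**Figure D2:**
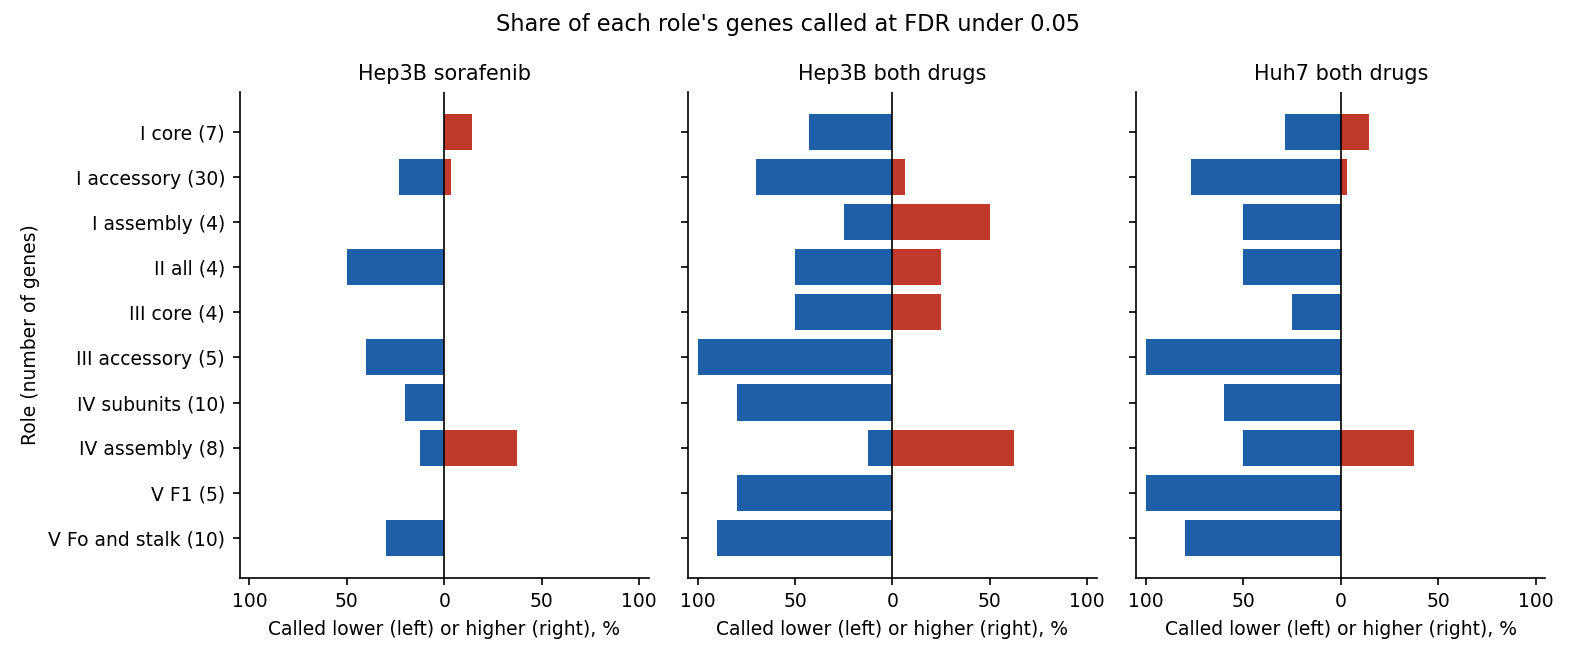
Share of the genes of each role (rows, with the number of genes) called lower (blue, left) or higher (red, right) in 3 deposited tables, on a percent axis that starts at 0 in the middle. With both drugs the accessory rows and the complex V rows lie to the left in both lines, and the complex IV assembly row has 5 of 8 genes to the right in Hep3B and 3 of 8 in Huh7. Of all transcripts at 2 CPM or more, 36.7% were called higher in Hep3B and 35.5% in Huh7 with both drugs. Called lower were 35.4% and 26.1%.

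In complex V, 4 of the 5 F1 genes were lower in Hep3B and 5 in Huh7. Of the 10 Fo and stalk genes 9 were lower in Hep3B and 8 in Huh7. The background lower at 2 CPM or more was 35.4% in Hep3B and 26.1% in Huh7. In the F1 catalytic pair ATP5B, the beta subunit, was at -0.16 ± 0.08 and -0.26 ± 0.08, called in both lines. ATP5A1, the alpha subunit, was at -0.06 ± 0.08, not called, and -0.35 ± 0.10, called. The median over all members was -0.28 in Hep3B and -0.29 in Huh7. ATP5J2, a small subunit of the membrane part, went from 35.9 to 15.8 CPM in Hep3B (-1.18 ± 0.10) and from 69.3 to 33.0 CPM in Huh7 (-1.07 ± 0.11), per the authors' deposited tables. The read-through gene ATP5J2-PTCD1, which overlaps it, was at 0.01 and -0.08 and was not called, and the split of reads between these overlapping genes is uncertain. ATP5S, known as coupling factor B and placed here outside F1 and Fo, was higher in both lines (0.29 and 0.76).

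The c subunit of the Fo rotor is made from 3 genes, and their values separated. ATP5G1 went from 22 to 10.9 CPM in Hep3B (-1.02 ± 0.10) and from 43.4 to 17.1 CPM in Huh7 (-1.34 ± 0.11, edgeR FDR 2.12e-34 in the authors' deposited table), the lowest fold change of any member in Huh7. ATP5G3 went from 125.0 to 67.1 CPM in Hep3B (-0.90 ± 0.09) and from 188.0 to 98.2 CPM in Huh7 (-0.94 ± 0.10). ATP5G2 was not called in either line, at 81.9 and 86.8 CPM in Hep3B (0.08 ± 0.09) and 83.0 and 92.2 CPM in Huh7 (0.15 ± 0.11), per the authors' deposited tables.

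Isoforms restricted to other tissues or conditions were at the floor, with 1 exception. COX4I2, COX6B2, COX7A1, COX7B2 and COX8C were below 2 CPM in the 6 tables and were called in none, and COX4I2 had a nonzero count in 9 of the 70 libraries. COX7A2, the counterpart of COX7A1 outside muscle, was at 69.8 CPM in Hep3B DMSO and 77.7 CPM in Huh7 DMSO and was lower in both lines (-0.77 and -0.60). The exception was NDUFA4L2, a relative of NDUFA4 known as a target of hypoxia signalling. Its level was 0.705 CPM in Hep3B DMSO and 3.36 CPM with both drugs (2.25 ± 0.20), and 0.396 and 1.67 CPM in Huh7 (2.07 ± 0.27), called in both authors' deposited tables. With sorafenib alone in Hep3B it was 3.83 CPM beside 0.672 CPM in DMSO (2.51 in the authors' deposited table). In the Huh7 table labelled GW3965 it was 0.98 and in that labelled sorafenib 0.84, and neither was called. These are low levels, and in Huh7 both groups lay under 2 CPM.

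**Figure D3:**
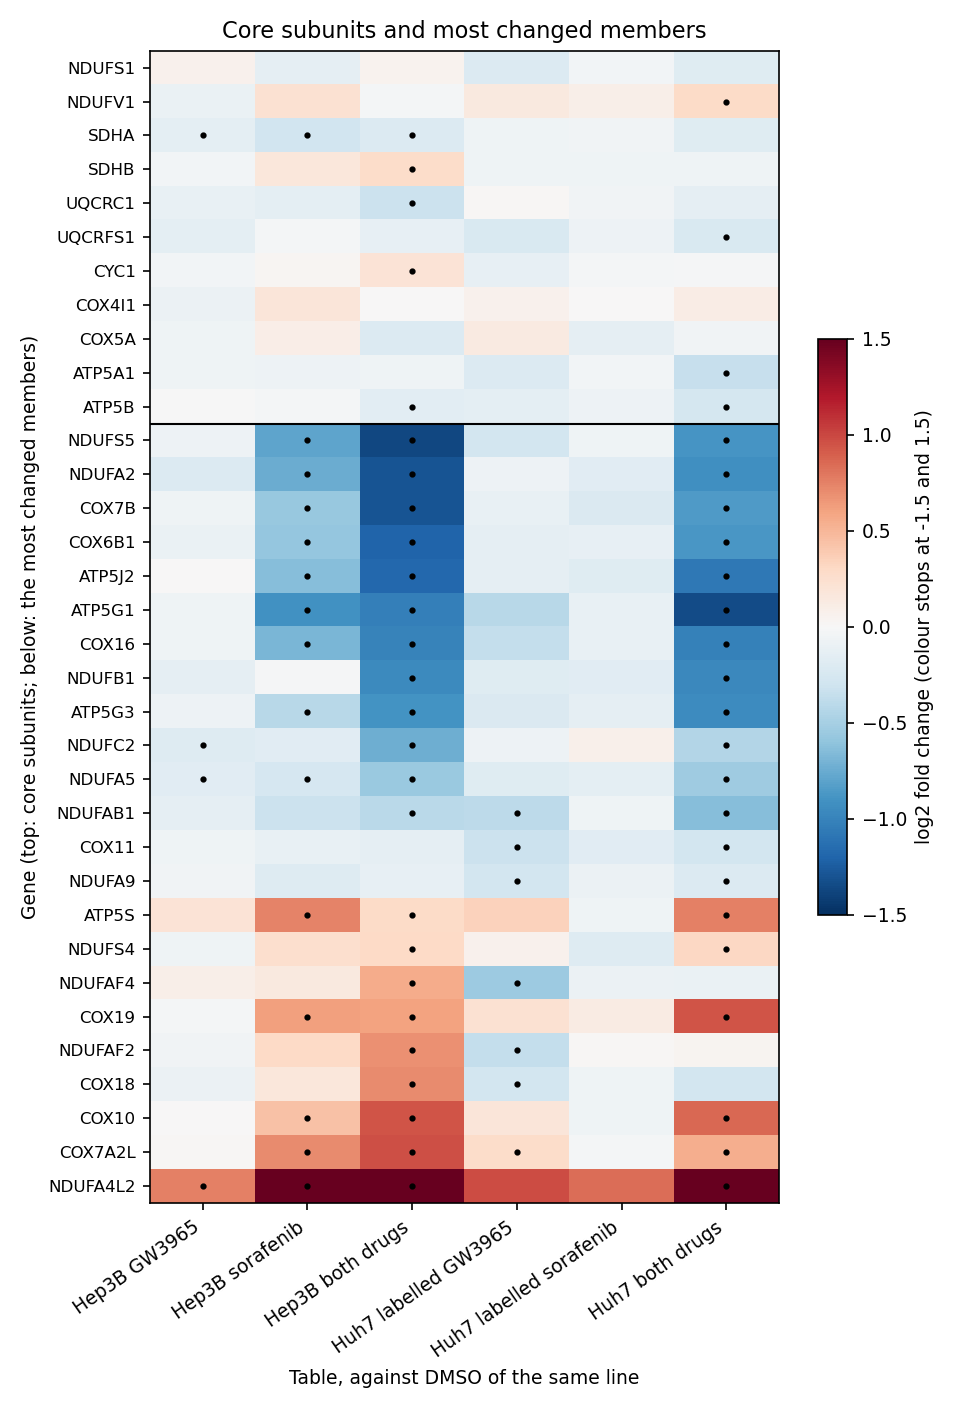
Log2 fold change against DMSO (colour, which stops at -1.5 and 1.5) of 11 subunits picked by name (top, labelled core) and the 23 other members with the most extreme called values (below), in the 6 deposited tables (columns). A dot marks an edgeR FDR under 0.05. The lower block is blue or red mainly in the Hep3B sorafenib column and the both-drug columns, and the top block is paler. The top block holds COX4I1 and COX5A, which are not counted as core in the text. It leaves out the core genes SDHC (-1.08 in Hep3B and -0.39 in Huh7 with both drugs) and NDUFV2 (-0.63 and -0.27), so it does not stand for all core genes.

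The both-drug falls were tested against each single drug with an approximate test of the difference of the authors' fold changes, adjusted over the transcripts with a mean of at least 2 CPM. The tables of a line share their DMSO libraries, which this test counts more than once. In Hep3B, 31 of 93 members were lower with both drugs than with sorafenib and 4 higher, beside 14.6% lower and 31.3% called in all of the transcripts tested. Against GW3965 45 of 92 were lower and 12 higher, beside 33.2% lower and 64.0% called. In Huh7, 44 of 92 members were lower with both drugs than in the group labelled sorafenib and 5 higher, beside 18.1% lower and 47.3% called. Against the group labelled GW3965 30 of 92 were lower and 3 higher, beside 9.68% lower and 30.1% called. Of the extremes with sorafenib in Hep3B, NDUFS5 (-0.57), NDUFA2 (-0.56), ATP5J2 (-0.54) and COX10 (0.50) were called different from sorafenib with both drugs. ATP5G1 (-0.11), COX16 (-0.33), NDUFA4L2 (-0.26), ATP5S (-0.45), COX7A2L (0.26) and COX19 (-0.02) were not called different from sorafenib there.

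NDUFA13, an accessory subunit of complex I, had the lowest difference from sorafenib alone among the members in Hep3B. In the authors' deposited tables it was at -0.11 with GW3965, 0.05 with sorafenib and -1.0 with both. Both drugs differed from sorafenib by -1.05 ± 0.15 (adjusted p 8.65e-10, approximate test), and from the sum of the 2 single-drug fold changes by -0.94 ± 0.18 (adjusted p 9.13e-06). In that test of a departure from additivity 15 of 92 Hep3B members were lower than the sum and 2 higher, beside 11.4% lower and 22.3% called. NDUFB1 (-0.81), NDUFA3 (-0.74) and NDUFB2 (-0.72) were among those lower, and COX18 (0.63) and COX10 (0.50) were the 2 higher. In Huh7 15 of 92 members were lower than the sum and 3 higher, beside 5.94% lower and 21.5% called. ATP5G1 (-0.82 ± 0.22), ATP5J2 (-0.76 ± 0.24) and NDUFA2 (-0.67 ± 0.17) had the lowest values there, and COX10 (0.73), COX19 (0.60) and NDUFAF4 (0.55) were higher. Subtracting each table's median over expressed genes moved this Huh7 count to 28 lower and 1 higher, because the medians of the 3 tables shift the sum by 0.14.

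The lines share no libraries. Of the members called lower with both drugs, 48 were so in both lines, which is 82.8% of the Hep3B and 81.4% of the Huh7 list. Over all representative transcripts, which include those below 2 CPM, those shares were 48.7% and 66.5%. The shares at 2 CPM or more were not worked out, so the size of the excess is uncertain. Of the members called higher, 6 were so in both lines, which is 46.2% of the Hep3B and 85.7% of the Huh7 list, beside 58.5% and 62.4% over all representative transcripts. These 6 were ATP5S, COX10, COX19, COX7A2L, NDUFA4L2 and NDUFS4. A test of the difference between the lines called 23 of 92 members, 15 with a lower and 8 with a higher fold change in Hep3B, beside 26.3% lower, 17.9% higher and 44.3% called in all of the transcripts tested. After subtracting each table's median over expressed genes the split was 10 lower and 17 higher. COX18 (0.98 ± 0.17), NDUFAF4 (0.66 ± 0.14) and NDUFAF2 (0.64 ± 0.18), all assembly factors, had the largest positive differences, and NDUFA13 (-0.68 ± 0.15) and SDHC (-0.68 ± 0.12) the largest negative ones.

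**Figure D4:**
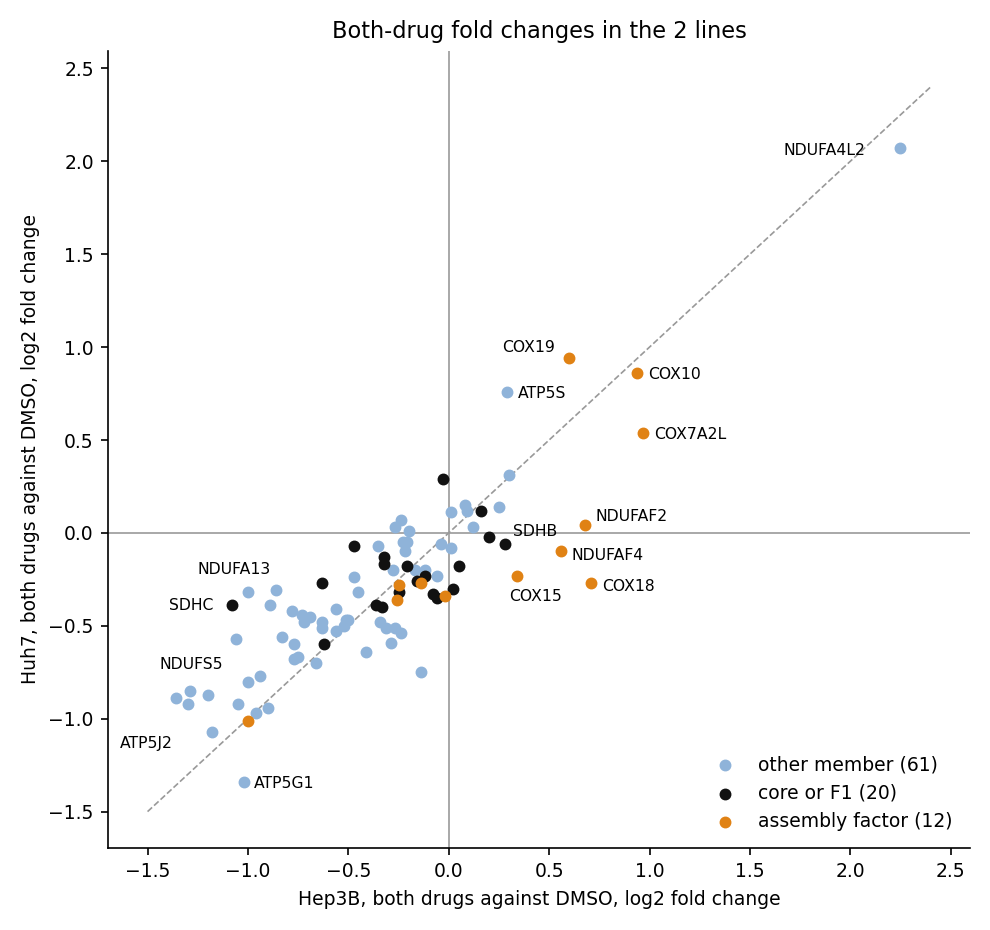
Log2 fold change with both drugs in Hep3B (horizontal) and Huh7 (vertical) for 93 members, coloured by role, with the line of equal change dashed. Most points lie at the lower left, COX10, COX19, COX7A2L and NDUFA4L2 lie in the upper right, and COX18, NDUFAF2 and NDUFAF4 lie to the right of the dashed line.

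Coding length, a property the rule did not use, moved with the change. Coding length was matched for 99 of the 102 members. Accessory subunits of complex I had a median of 411 coding bases and its core subunits 792. Across the members at 2 CPM or more with a length, Spearman's rho between coding length and log2 fold change was 0.54 over 92 genes in the Hep3B both-drug table and 0.59 over 91 in the Huh7 one. Over 10977 and 10849 other genes it was 0.01 and 0.07. The genes are measured in the same libraries and are not independent replicates, so these are descriptions. Of 61 members under 600 coding bases 45 were called lower in Hep3B (73.8%), and of 31 longer members 12 (38.7%). In Huh7 the counts were 46 of 60 (76.7%) and 12 of 31 (38.7%). Other genes under 600 coding bases were called lower in 41.8% in Hep3B and 34.2% in Huh7, and longer ones in 34.6% and 24.9%. Length thus moved with the result among the members, and its part in the result was not tested.

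**Figure D5:**
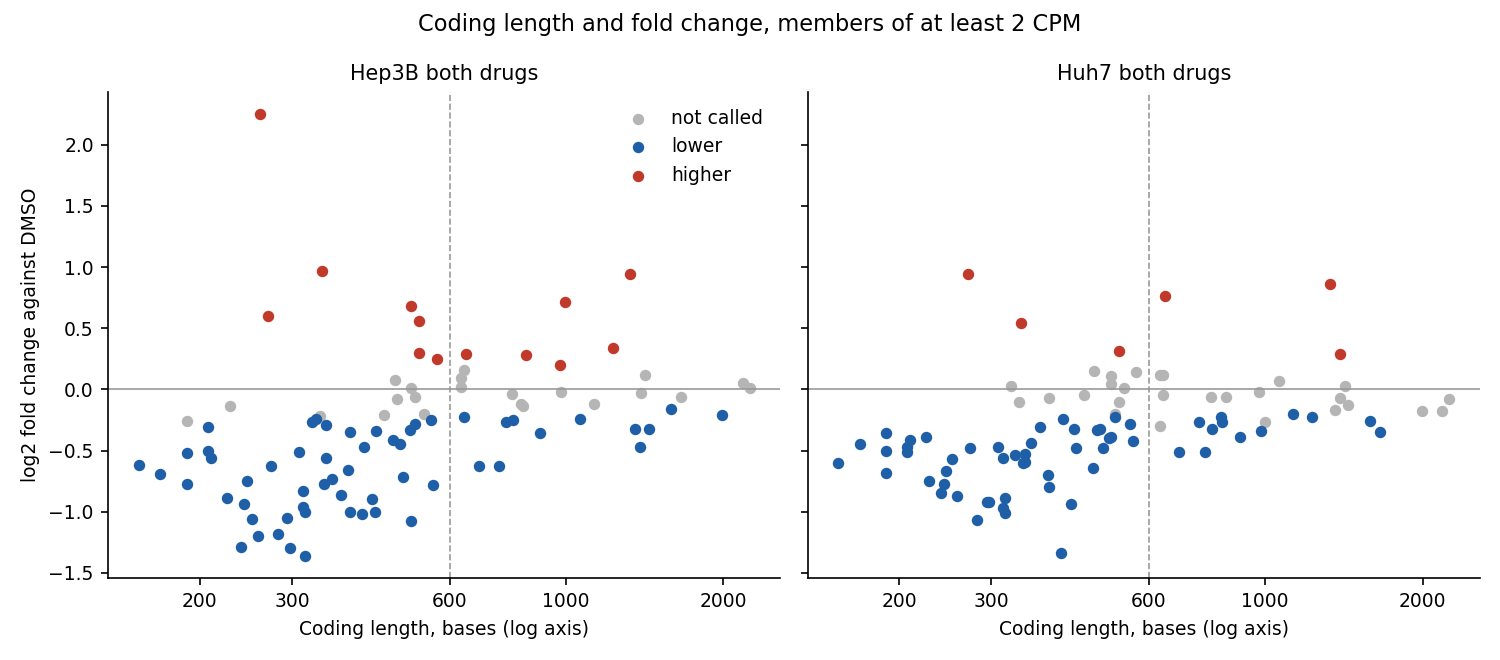
Coding length in bases (horizontal, log axis) and log2 fold change with both drugs (vertical) for members of at least 2 CPM in Hep3B (left) and Huh7 (right), coloured by the authors' edgeR call. The dashed line marks 600 bases, and the lowest values lie to its left in both panels.

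Other gene families of multi-subunit complexes were counted in the same way. Of 97 genes of cytosolic ribosomal proteins, 43 were higher and 6 lower with both drugs in Hep3B (median 0.19), and 41 higher and 6 lower in Huh7 (median 0.23). Of 76 genes of mitochondrial ribosomal proteins, which make the chain's mitochondrially encoded subunits, 22 were higher and 24 lower in Hep3B (median 0.03), and 11 higher and 37 lower in Huh7 (median -0.20). Of 39 proteasome genes, 2 were higher and 22 lower in Hep3B (median -0.32), and 3 higher and 30 lower in Huh7 (median -0.33). In that order, 6.19%, 31.6% and 56.4% of the families' genes were called lower in Hep3B and 6.19%, 48.7% and 76.9% in Huh7. Of the members 56.9% and 57.8% were lower, and of all transcripts at 2 CPM or more 35.4% and 26.1%. In either direction, 50.5%, 60.5% and 61.5% of the families' genes were called in Hep3B and 48.5%, 63.2% and 84.6% in Huh7. Over all representative transcripts 49.6% and 41.6% were called, and at 2 CPM or more 72.1% and 61.7%. No test between these groups was run.

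The promoters of the members, called or not, were read for the motifs by which respiratory genes are known to be regulated. The 250 bases before the gene start were taken from RefSeq (GRCh38.p14) for the 79 members with an entry. A gene with several windows was counted where any of them held the motif. The motif CCGGAAG of ETS factors such as GABPA, searched on both strands, was present in 27.8% of the members and in 14% of 15843 coding genes. The palindromic motif of NRF1 was present in 6.33% and 1.72%, and matches of the 2 motifs can share end letters. GGGCGG, the motif of SP1, was present in 58.2% and 62.1%, and ACGTG, the core of the hypoxia response element, in 22.8% and 25.3%. The YY1, ATF4 and ERR motifs were each present in at most 1 member. Within the members the ETS motif was in 28.9% of the 38 called lower in both lines and in 26.8% of the 41 others, which include genes lower in 1 line, higher or not called. The following sequences are the 200 bases before the start of 2 members that fell and 1 that rose, printed as examples of windows with 0, 1 and 2 copies of the motif. Capitals mark CCGGAAG or its reverse complement. The windows of COX7B, which fell, and COX19, which rose, held no copy and are not printed, so the printed examples show no order between copies and change.
NDUFA2, lower in both lines, chr5:140647631-140647830, minus strand: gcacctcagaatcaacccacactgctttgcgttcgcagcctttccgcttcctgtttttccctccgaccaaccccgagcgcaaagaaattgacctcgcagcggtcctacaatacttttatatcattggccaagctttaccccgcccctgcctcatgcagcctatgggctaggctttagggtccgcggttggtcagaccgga
COX6B1, lower in both lines, chr19:35648123-35648322, plus strand: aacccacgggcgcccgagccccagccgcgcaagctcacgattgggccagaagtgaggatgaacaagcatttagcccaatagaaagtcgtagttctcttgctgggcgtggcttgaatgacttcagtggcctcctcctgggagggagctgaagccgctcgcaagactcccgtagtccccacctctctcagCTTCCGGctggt
COX10, higher in both lines, chr17:14069304-14069503, plus strand: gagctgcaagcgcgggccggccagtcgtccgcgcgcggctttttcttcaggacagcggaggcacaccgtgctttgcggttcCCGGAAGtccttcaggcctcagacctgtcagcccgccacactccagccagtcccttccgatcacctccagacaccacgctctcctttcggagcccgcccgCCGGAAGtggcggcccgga
A match describes letters in a window and is neither a site of binding nor a cause.

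The regulators of these genes did not move as 1 group. Of 13, 8 were called higher and 3 lower with both drugs in Hep3B, and 3 higher and 3 lower in Huh7. In either direction that is 84.6% and 46.2%, beside 72.1% and 61.7% of all transcripts at 2 CPM or more. PPARGC1A, the coactivator PGC-1alpha that raises mitochondrial gene expression, was higher in both lines (1.29 and 1.6) and with sorafenib alone in Hep3B (1.24), per the authors' deposited tables. TFAM, which packages and transcribes mitochondrial DNA, was lower in both (-0.48 and -0.49), as was GABPA, an ETS factor of respiratory promoters (-0.35 and -0.22). ESRRA, a nuclear receptor partner of PGC-1alpha, was higher in both (0.48 and 0.78). PPARGC1B was higher in Hep3B (1.65), where its mean was below 2 CPM, and was not called in Huh7 (0.22). POLG, the mitochondrial DNA polymerase, was lower in Hep3B (-0.81) and higher in Huh7 (0.39).

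Assembly factors with other names were spread over both directions. Of 35, 11 were higher and 10 lower with both drugs in Hep3B, and 9 higher and 15 lower in Huh7. In either direction that is 60.0% and 68.6%, beside 72.1% and 61.7% of all transcripts at 2 CPM or more. ECSIT, a complex I assembly factor, was higher in both lines (0.79 and 0.29), and TTC19, a complex III factor, reached 1.07 in Huh7 and 0.39 in Hep3B. C19orf79, the deposited symbol of the complex IV factor PET100, was lower in both (-1.16 and -0.71 in the authors' deposited tables). A further 7 genes of the chain stand in the tables under older symbols that the naming rule misses, and 4 were lower in Hep3B, 5 in Huh7 and none higher. The shares lower were 57.1% and 71.4%, beside 35.4% and 26.1% of all transcripts at 2 CPM or more. ATPIF1, the inhibitor protein of the ATP synthase, was at -1.20 and -0.66, and FAM36A (now COX20), which guards a newly made complex IV subunit, at -1.06 and -0.53. The reverse also holds: COX4NB matches the rule by its old symbol, encodes a subunit of a membrane insertion complex of the endoplasmic reticulum, and was not called (0.09 and 0.12).

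Neighbouring mitochondrial pathways were counted from fixed lists. Of 17 genes of pyruvate dehydrogenase and the citric acid cycle, 4 were higher and 3 lower in Hep3B and 2 higher and 4 lower in Huh7. In either direction 41.2% and 35.3% of them were called, fewer than the 72.1% and 61.7% of all transcripts at 2 CPM or more. IDH3G, a regulatory subunit of isocitrate dehydrogenase, was at -1.18 in Hep3B and at -0.14, not called, in Huh7. DLAT, the acetyltransferase of pyruvate dehydrogenase, was higher with GW3965 alone in Hep3B (0.90) and in the Huh7 table labelled sorafenib (0.57), per the authors' deposited tables. Of 4 pyruvate dehydrogenase kinases, which switch that enzyme off, PDK1 was higher in Hep3B (1.04) and lower in Huh7 (-0.59), and PDK2 was lower in both (-0.74 and -0.90). Of 8 electron carriers and exchange channels, 4 were higher and 3 lower in Hep3B and 3 higher and 2 lower in Huh7 (87.5% and 62.5% called, beside the same background). SLC25A3, the phosphate carrier of the ATP synthase, was higher in both (0.52 and 0.65) and VDAC1, the outer membrane channel, was lower in both (-0.69 and -0.41). SLC25A6, whose gene lies in the region shared by X and Y and whose reads may have been split between copies, was at 2.28 and 2.77 from low levels and is uncertain. Of 7 genes of mitochondrial protein quality control, 4 were higher and 1 lower in Hep3B and 3 higher and 2 lower in Huh7 (71.4% called in each, beside 72.1% and 61.7%). HSPE1, the small co-chaperonin, was lower (-1.31 and -1.11), while HSPA9, the matrix chaperone mortalin, and LONP1, the matrix protease, were higher (1.05 and 0.57, and 0.80 and 0.90, in the authors' deposited tables).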

How the data were processed

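Hep3B and Huh7 cells were compared as 8 groups (70 libraries) taken from the labels. The submitters' processing notes name edgeR, without a version, and hg19 and GRCh37. For the alignment, counting and normalization of reads, tools and settings were not given in the sources used here. By the file headers, the authors' values per RefSeq transcript are the log2 fold change against DMSO, its p-value and FDR (an adjusted p-value), and the log2 CPM averaged over libraries. The deposited tables also mark 1 representative transcript per gene and count the libraries in which it was seen. Benjamini-Hochberg adjustment of the deposited p-value over 32321 transcripts gave the deposited FDR. Values of single libraries and depth per library were not used here, and 0 columns of per-sample values were left out.

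The members and lists were chosen with earlier results of these data known. Values are named for core subunits, the 5 highest and 5 lowest called members at 2 CPM or more per table, isoform pairs, and up to 4 genes of each further list. Values of 1 member, kept in all counts, are not reported here. Other members named, among them NDUFA13 and SDHC, were named after their values were seen. So were the differences between the lines of NDUFAF2 and NDUFAF4, whose fold changes are among those extremes. Of the 102 members, 92 or 93 had a mean of at least 2 CPM, depending on the table. The DMSO level was the mean log2 CPM minus log2 of the average of the 2 groups' relative levels, weighted by library number, and levels from different tables of a line differed by a median of up to 0.081 on the log2 scale.

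A difference of fold changes was divided by its error. The standard error was the size of the log2 fold change over the normal score of its p-value, and it was set to at least the median of transcripts of like expression (20 bins), which also stood in where p exceeded 0.5. Two-sided p-values were adjusted by Benjamini-Hochberg over all representative transcripts with a mean of at least 2 CPM. Coding length came from GENCODE transcripts matched to RefSeq. Promoters came from RefSeq GRCh38.p14, where 98 windows matched members. The last part of 53 windows was found within a transcript of the gene, and 0 were found in reverse. That is a check of the strand and not of the position of the start. Python 3.11.15, NumPy 2.4.6, pandas 2.3.3 and SciPy 1.17.1 were used. Alternatives were the FDR threshold, the adjustment, the transcript, a minimum on expression, centring and structural subunits only.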

Additional observations from a re-analysis of the deposited data

Results flagged for a closer look

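With both drugs, the log2 fold change against DMSO differed between the lines for 23 of 92 members, Hep3B minus Huh7. The call is by the approximate test of the difference (adjusted p under 0.05). Of all the transcripts tested 44.3% were called, a larger share than among the members. Lower in both lines and further so in Hep3B were SDHC (difference -0.68, adjusted p 4.66e-07), NDUFA13 (-0.68, 6.04e-05), NDUFS6 (-0.55), COX6C (-0.50), NDUFA3 (-0.49), NDUFS5 (-0.47), COX7B (-0.44), NDUFA2 (-0.38), NDUFB8 (-0.36), NDUFV2 (-0.36) and COX6B1 (-0.34). NDUFA10 (-0.32) was called lower in Hep3B and was not called in Huh7. NDUFV1 (-0.32) was called higher in Huh7 and was not called in Hep3B, and COX19 (-0.34) was higher in both lines and more so in Huh7.

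Without centring, 8 differences were positive. The assembly factors among them were COX18 (0.98, adjusted p 4.78e-08 in the approximate test), NDUFAF4 (0.66), NDUFAF2 (0.64), COX15 (0.57) and COX7A2L (0.43). The others were the subunits NDUFC1 (0.60), SDHB (0.34) and ATP5A1 (0.30). Centring on the expressed-gene medians gave 17 positive differences, whose roles were not counted. NDUFC1 was at -0.75 in Huh7 and at -0.14, not called, in Hep3B. NDUFAF2 was called higher in Hep3B (0.68) and was not called in Huh7 (0.04). COX15 was called higher in Hep3B and lower in Huh7.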

How the results depend on the processing

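No paired analysis was possible because the tables hold the authors' group comparisons and values of single libraries were not used here. For the same reason the planned refits without each replicate, with the replicate block and with DESeq2, another normalization or a count filter were not run.

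At an FDR under 0.01 the members called fell to 1 for GW3965 in Hep3B and to 3 in the Huh7 table labelled GW3965, which called 2 among structural subunits only. At an adjusted p under 0.01 the approximate test called 17 members for both drugs against sorafenib in Hep3B, 7 for the Hep3B departure from additivity, 8 for that in Huh7 and 13 for the difference between the lines. Centring on the expressed-gene medians gave 29 for the Huh7 departure. The other totals called stayed within 1.5 times their value under every alternative run. Within a total, the members lower with sorafenib in Hep3B went from 18 to 11 at an FDR under 0.01, and the split of the line difference went from 8 higher and 15 lower to 17 and 10 under centring. Among the 187 gene values that were called, or were core subunits with both drugs, 30 lost their call at FDR under 0.01 and none changed sign under the alternatives run. Of the 23 differences between the lines, NDUFV1, NDUFA10, NDUFA2, NDUFB8 and COX19 lost their call under centring and ATP5A1 without a minimum on expression. Without that minimum 16638 of 20090 transcripts had an error for the line difference. The number of libraries and the low levels limit the precision below 2 CPM, where NDUFA4L2 and UQCRHL were the members called in a both-drug table.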
